A study of Oryza sativa Japonica Group with 6 samples.

Results

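Germin-like GER genes were examined in developing rice seeds (Oryza sativa Japonica Group) on Affymetrix rice genome arrays. The members were the genes whose symbol or synonym is GER1 to GER8, with every probe set that the platform annotation assigns to 1 gene alone. All 8 genes were found, with 10 probe sets among 57194 rice probe sets, and as 8 of 17905 genes that have a probe set of their own. Of these, 7 genes had 1 probe set. GER8 had 3, and it is led by the probe set with the highest mean over the 6 arrays. The genes were chosen by name and the leading probe set was selected on its mean over all arrays, so levels are given as a description without a test.

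The series asks how extra fertilizer changes expression in the seed. The additional NH4Cl group holds 3 arrays of seeds, labelled 15 days after flowering, from plants in containers that were sprayed at the soil surface with 400 mg of ammonium chloride when heading began. The control group holds 3 arrays of seeds from plants without it, whose day of sampling the labels leave out. Both groups had received fertilizer when planted and on day 37 from germination. Both were kept at 28 °C by day and 22 °C by night, with days of 12 h and nights of 12 h. Seeds were taken from 6 plants, material was pooled before extraction (the tissue label gives developing seed, which is followed here, but the extraction protocol names seedlings), and the labels call the replicates biological without naming the plants behind each one, so the p-values reflect only the spread among these samples, part of which may be technical.

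Germins and germin-like proteins are secreted glycoproteins of the cupin superfamily that assemble into very stable oligomers in the plant cell wall and bind manganese. The founding member, from germinating wheat, is an oxalate oxidase that releases hydrogen peroxide, and several germin-like proteins of cereals act as superoxide dismutases, which also yield hydrogen peroxide. In rice and barley, germin-like genes are best known from defence against fungi, and a group of such genes on rice chromosome 8 lies in a region linked to resistance to blast disease. Per the gene table of assembly ASM3414082v1, GER3, GER2 and GER1 follow one another on chromosome 8 with 0 genes between them, and GER6 comes after 2 further genes. GER5 lies elsewhere on chromosome 8, GER4 and GER8 on chromosome 1, and GER7 on chromosome 3. No positions are given, because the build behind the probe sets is not given in the sources used.

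The arrays were checked against marker genes of seed tissues. Of 10 starchy endosperm genes, such as glutelins, prolamin and starch synthesis enzymes, 9 lay above the level of at least 98.85% of rice probe sets, and the exception was GLUB-4 at 5.36. All 8 aleurone and embryo genes lay above at least 97.47%. Array medians ran from 5.71845 to 5.7186. The first principal component, with 26.5% of the variance, separated the groups, and on the second, with 24%, additional NH4Cl replicate 3 stood apart at -217.7 while the other arrays lay between -4.661 and 103.4. Values without that array are given below.

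The deposited values are on a log2-like scale from 4.96 to 13.51, on which arrays differ very little: the median within-group SD of a rice probe set was 2.133e-06. Differences between arrays therefore cannot be read as log2 fold changes of RNA. Each difference is additional NH4Cl minus control in deposited units, and is also expressed in within-group SDs, the residual SD that the fit gives to that probe set. The signal of a probe set depends on its probes as well as on the RNA, so the order of levels below is an order of signals.

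GER3 gave by far the highest signal of the family in the developing seed. Its mean over the 6 arrays was 12.41, which ranked 57 among the rice probe sets and lay above 99.9% of them. GER1 followed at 7.19, above 85.47% of rice probe sets, and GER4 at 6.89, above 81.82%. GER2 stood at 6.14, above 68.69%. These 4 genes lay above all 64 reporter control probe sets, which probe reporter sequences foreign to rice and whose means ran from 5.03 to 6.072.

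The other 4 genes lay within the range of the reporters, so their signal need not come from their own RNA. GER6 at 5.91 and GER5 at 5.90 each lay above 61 of 64 reporters, GER7 at 5.76 above 59, and GER8 at 5.66 above 56. GER8's 2 further probe sets were dimmer, at 5.59 and 5.42. The ranges over the 6 arrays of neighbours in this order did not overlap, since no leading probe set spanned more than 0.007135 over the arrays.

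**Figure D1:**
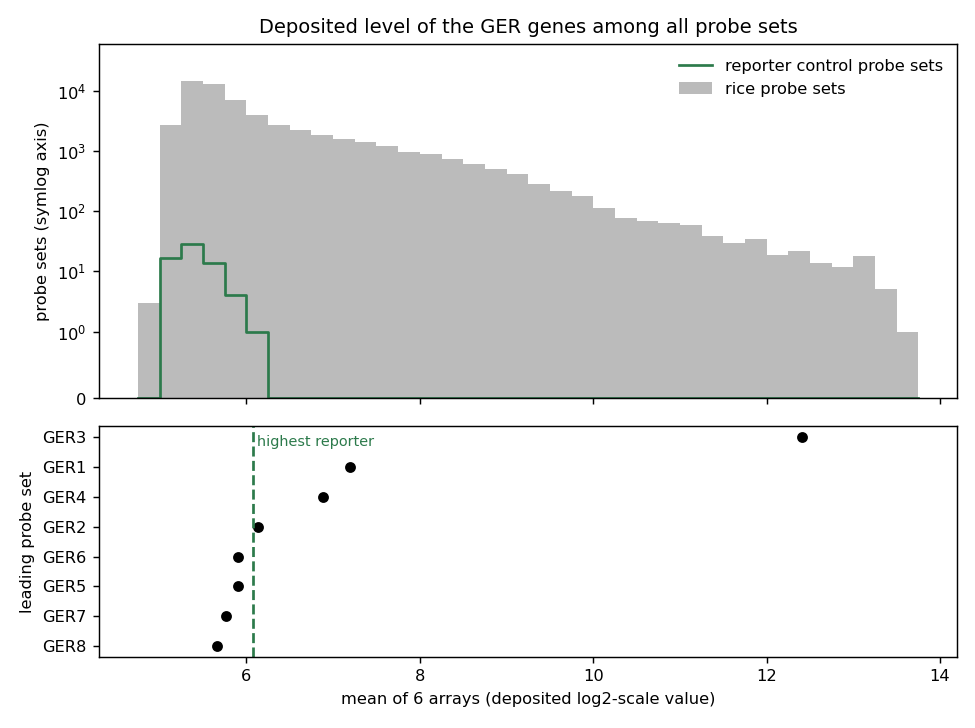
Upper panel: number of rice probe sets (grey bars) and reporter control probe sets (green line) in bins of the mean deposited log2-scale value over 6 arrays, on a symlog count axis. Lower panel: the mean of each GER gene's leading probe set, with the highest reporter mean of 6.072 as a dashed line; GER3 at 12.41 stands far above the others, and GER6, GER5, GER7 and GER8 lie left of the line.

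With additional NH4Cl, none of the 8 genes passed limma's test after Benjamini-Hochberg adjustment over all rice probe sets. Of the leading probe sets 6 had a higher mean with additional NH4Cl as deposited (2 after quantile normalization and 7 after median centring of the arrays), where 50.4% of all rice probe sets did, and those of GER4 and GER7 had a lower one. Over all rice probe sets the fit called 0.00699% (4 of 57194, all 4 lower). Without adjustment, GER1, GER2 and GER6 had a higher mean at p under 0.05, where 11.1% of all rice probe sets passed in either direction, 5.09% being higher and 5.96% lower. The adjusted p of the 8 genes ran from 0.2709 to 0.9185. Their median difference was 1.359 within-group SDs, against 0.01005 for all rice probe sets. In RNA of whole seeds, more cells of a type and more RNA per cell cannot be told apart.

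The 3 genes with the smallest unadjusted p all belong to the chromosome 8 neighbours. GER1 is one of these tandem germin-like genes. It had 7.1959, 7.1965 and 7.1942 on the additional NH4Cl arrays, against 7.1941, 7.1936 and 7.1925 on the control arrays. The groups did not overlap, with additional NH4Cl replicate 3 only 8.369e-05 above control replicate 1. The additional NH4Cl mean was 7.1955 ± 0.001163 and the control mean 7.1934 ± 0.0008326 (SD, n = 3 each), a difference of 0.002115 (SE 0.0008257; 2.091 SDs; limma adjusted p of 0.4466).

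GER2, the gene between GER3 and GER1, had 6.13827, 6.13835 and 6.13824 with additional NH4Cl, against 6.13820, 6.13814 and 6.13814 in control. All 3 additional NH4Cl arrays lay above all control arrays. The difference was 0.0001293 (SE 3.745e-05; 2.82 SDs; limma adjusted p of 0.326). GER2 had the smallest margin over the reporters of the 4 brighter genes.

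GER6 had the largest difference of the family relative to its spread. Its values were 5.907654, 5.907647 and 5.907645 with additional NH4Cl, against 5.907632, 5.907619 and 5.907632 in control. The groups did not overlap, and the difference was 2.114e-05 (SE 5.22e-06; 3.307 SDs; limma adjusted p of 0.2709). It was -0.0001671 after quantile normalization of the arrays, and the level of GER6 is within the range of the reporters.

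GER3, which carries the synonym glp16, also had a higher mean as deposited, with groups that overlapped. It had 12.406087, 12.406097 and 12.406086 with additional NH4Cl, against 12.406082, 12.406090 and 12.406080 in control. Control replicate 2 lay above additional NH4Cl replicates 1 and 3. The additional NH4Cl mean was 12.406090 ± 5.985e-06 and the control mean 12.406084 ± 5.373e-06 (SD, n = 3 each), a difference of 5.74e-06 (SE 4.644e-06; 1.009 SDs; limma adjusted p of 0.7559). The difference was 0 once arrays were quantile normalized, as happens by construction to a probe set with the same rank on every array.

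GLP2 is the one other named germin-like gene of this chromosome 8 region with a probe set of its own. The means of its 2 probe sets, 5.71 and 5.46, lay within the range of the reporters. Their differences were -1.085e-06 (-0.4365 SDs) and -4.167e-08 (-0.04495 SDs). The groups overlapped for both. The first was 2.332e-05 and the second 1.305e-05 after quantile normalization, and both were also positive after median centring. LOC4344847, the gene after GLP2 in the table, had a level of 9.14 and a difference of -9.85e-07 (-0.05157 SDs) with overlapping groups, positive under both other scalings.

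Away from that group, GER4 had the widest spread of the family. In rice GER4 has been studied for its response to jasmonate in roots. It had 6.8895, 6.8893 and 6.8845 with additional NH4Cl, against 6.8889, 6.8874 and 6.8916 in control. The groups overlapped, and the lowest value belonged to additional NH4Cl replicate 3, the array that stood apart. The additional NH4Cl mean was 6.8878 ± 0.002839 and the control mean 6.8893 ± 0.002114 (SD, n = 3 each). The difference of -0.001568 (SE 0.002043; -0.6267 SDs; limma adjusted p of 0.8804) was 6.886e-05 without that array. Its within-group SD was larger than that of 99.08% of rice probe sets.

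GER7 was the one member whose additional NH4Cl arrays all lay below the control arrays. It had 5.761334, 5.761341 and 5.761322 with additional NH4Cl, against 5.761346, 5.761345 and 5.761352 in control. The difference was -1.495e-05 (SE 5.973e-06; -2.043 SDs; limma adjusted p of 0.4591), and it was 0.0001076 after median centring.

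GER5, also named GLP1, belongs to the germin-like proteins for which superoxide dismutase activity has been reported in rice. It had 5.8986325, 5.8986322 and 5.8986333 with additional NH4Cl, against 5.8986315, 5.8986322 and 5.8986319 in control. The groups were apart by 2.1e-08, far less than the within-group SD of 4.713e-07. The difference of 8.053e-07 (1.709 SDs; limma adjusted p of 0.593) was -4.949e-05 after quantile normalization.

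GER8's leading probe set had 5.663731, 5.663736 and 5.663741 with additional NH4Cl, against 5.663735, 5.663736 and 5.663732 in control, and the groups overlapped. Its difference was 1.821e-06 (0.5049 SDs). The 2 dimmer probe sets differed by -9.313e-07 and -1.823e-07, so the probe sets of this gene did not share a direction. All 3 carry suffixes that mark probes able to match several transcripts.

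**Figure D2:**
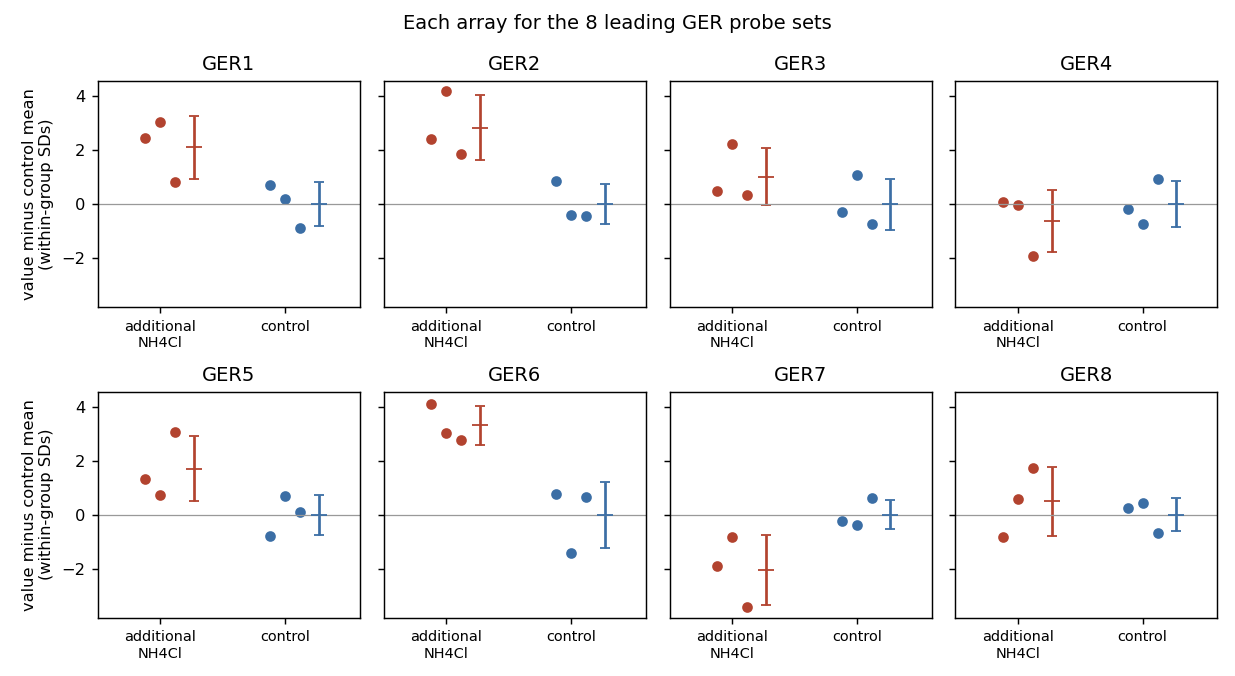
Each point is 1 array (additional NH4Cl on the left in red, control on the right in blue) for the leading probe set of each GER gene, as its value minus the control mean divided by the within-group SD; the bars are mean ± SD of 3 arrays. As deposited, GER1, GER2, GER5 and GER6 have all red points above the blue ones, GER7 has them below, and GER3, GER4 and GER8 overlap; the means of GER5 and GER6 turn lower after quantile normalization and that of GER7 higher after median centring.

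In all, groups did not overlap for 5 of 8 genes, 4 higher and 1 lower, where 17.4% of all rice probe sets had no overlap in either direction, 8.42% being higher and 8.99% lower. That share grew with signal, from 11.8% in the lowest of 4 equal bins of level to 24.7% in the highest. GER1 lies in the highest bin together with GER3 and GER4, the next bin below, which holds GER2, GER5, GER6 and GER7, had 19.1%, and the bin of GER8 had 14.1%. With 3 arrays against 3, an exact two-sided permutation test of 1 gene cannot go below 0.1. The members were chosen with earlier results known, so their count is a description.

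The direction of several members turned with the scaling of the arrays. After quantile normalization 2 of 8 genes, GER1 at 0.001815 and GER2 at 7.279e-05, had a higher mean with additional NH4Cl, 4 a lower one and 2 no difference left, and GER7 alone kept groups that did not overlap. Centring the arrays on their medians added about 0.000123 to the difference of every probe set, an amount larger than the size of the deposited difference of 5 of the 8 genes. After it 7 genes had a higher mean with groups that did not overlap, GER7 among them, and all 7 passed, as did 50499 of 57194 rice probe sets in that direction. The share of all rice probe sets without overlap was not taken under either scaling. GER1 and GER2 were thus the genes with a higher mean as deposited and under both scalings, and GER4 had a lower mean in all 3 of these.

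**Figure D3:**
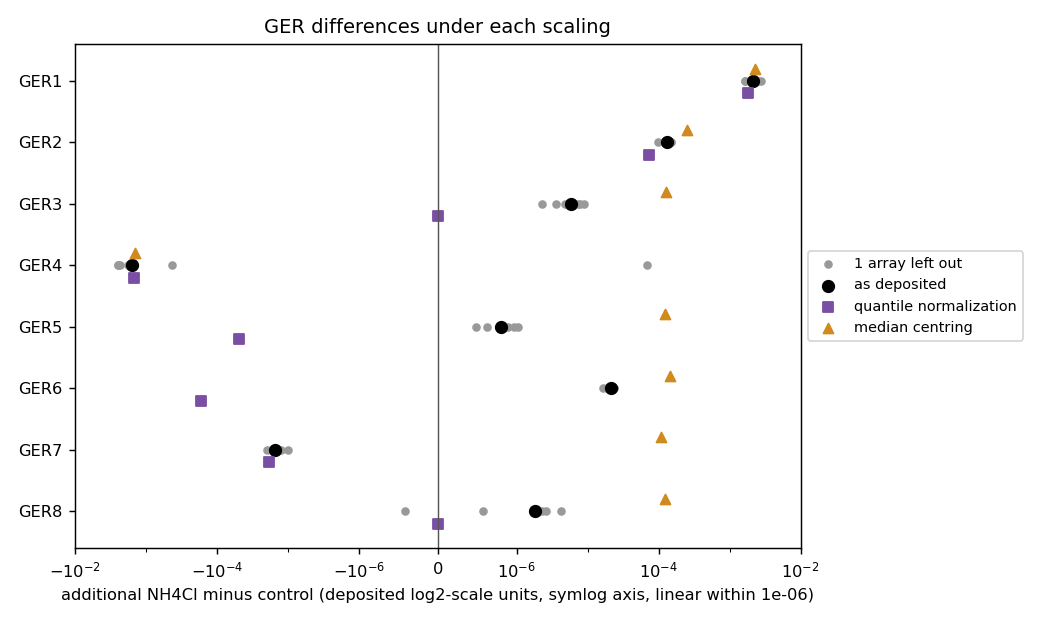
Difference of each leading GER probe set, additional NH4Cl minus control, in deposited log2-scale units on a symlog axis that is linear within 1e-06. Black points are the values as deposited, grey points leave out 1 array, purple squares follow quantile normalization and orange triangles follow median centring; GER5 and GER6 change sign with quantile normalization, GER7 with centring, and GER4 and GER8 with 1 array left out.

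Without additional NH4Cl replicate 3, GER1 differed by 0.002765, GER2 by 0.0001512, GER3 by 7.695e-06, GER5 by 4.878e-07, GER6 by 2.286e-05 and GER7 by -9.89e-06. Their signs were those of the full set of arrays. The difference of GER8's leading probe set was then -4.107e-07. None of the 8 passed after adjustment in that fit.

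Across the 6 arrays, GER1 and GER2 had the highest correlation among the members (Pearson r of 0.936, Spearman rho of 1), and r was 0.825 once each group's mean was removed. For GER4 and GER7 r was 0.797, and 0.887 with group means removed, the highest of the pairs on that measure. GER2 and GER6 had an r of 0.817, but 0.187 with group means removed. GER4 and GER8 ran opposite to each other (r of -0.885; -0.874 with group means removed), and so did GER5 and GER7 (-0.902 and -0.783). With group means removed, r of GER5 was also -0.862 with GER2 and -0.826 with GER1, though 0.327 and 0.219 across the arrays. GER4 and GER7 both had their lowest value on additional NH4Cl replicate 3, the array that stood apart. On that same array GER5 and GER8 had their highest value, so the opposite pairs share this limit. GER5, GER6, GER7 and GER8 lay within the range of the reporters. These are descriptions over 6 arrays that share the group difference and the scaling of each array.

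Among 3176 probe sets of other named genes, GER3 was most like Pi21 and MADS24, with r of 0.97 and 0.962. For GER1 these were C3H60 (0.972) and JAZ12 (0.97), and for GER2 they were PhyB (0.991) and GLUA-3 (0.985). GER4 was most like DSM3 (0.992) and PRXIIF (0.988), GER5 most like PBD1 (0.99) and C3H17 (0.973), and GER6 most like proT (0.983) and COPZ2 (0.977). GER7 was paired with MSI1 (0.991) and CSLC2 (0.987), and GER8 with TUB8 (0.995) and L-CDes1 (0.992). Between 0.5982% and 2.361% of the named probe sets reached an r of 0.9 with a given member. Partners were picked as the highest of 3176 correlations over 6 arrays, so a high r is built into the choice, and no link was tested. C3H17 at 5.89, COPZ2 at 5.5 and TUB8 at 5.66 lay within the range of the reporters, as did GER5, GER6, GER7 and GER8.

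Genes that make or remove superoxide and hydrogen peroxide, the substrates and products of germin-like enzymes, were set beside the family. By name, 6 genes matched superoxide dismutases, among them CCS, their copper chaperone, and CCS1, whose product the tables do not give. With additional NH4Cl 3 had a higher and 3 a lower mean as deposited, with 3 higher after quantile normalization and 6 after median centring. None passed limma's adjusted threshold. At an unadjusted p under 0.05, where 5.96% of all rice probe sets were lower, there was 1 of 6, SODA, which encodes the manganese enzyme. CUZNSOD1 and SODCC.2, the copper-zinc enzymes with the highest signal at 9.98 and 9.97, differed by 6.905e-06 (0.4532 SDs) and -1.747e-06 (-0.07053 SDs). SODA differed by -1.713e-05 (SE 6.468e-06; -2.162 SDs). After median centring both SODCC.2 and SODA were positive, and after quantile normalization CUZNSOD1 was negative.

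Hydrogen peroxide removal, by ascorbate peroxidases, catalases, peroxiredoxins and class III peroxidases, was represented by 16 genes, of which 8 had a higher mean and 8 a lower one as deposited, with 5 higher after quantile normalization and 16 after centring. None passed after adjustment by limma. Of the 16, 1 was below an unadjusted p of 0.05, against 11.1% of all rice probe sets, namely APX1, a cytosolic ascorbate peroxidase with a positive difference of 0.0002779 (6.994 SDs). The 2 with the highest signal, APX2 and the peroxiredoxin PRXIIC, differed by -2.336e-05 (-0.6636 SDs) and -4.198e-05 (-0.7702 SDs), and both were positive after median centring. After quantile normalization APX2 and a gene named PEROXIDASE had no difference left.

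Of 5 genes for hydrogen peroxide production, 3 had a higher mean and 2 a lower one as deposited, with 3 higher after quantile normalization and 4 after centring, and 0 passed limma's adjusted threshold. At an unadjusted p under 0.05 there were 3 of 5, 1 higher and 2 lower, where 5.09% of all rice probe sets were higher and 5.96% lower. GLO1, matched by name as a glycolate oxidase of photorespiration, was higher at 1.104e-05 (2.667 SDs). The lower ones were GLO3 at -6.945e-05 (-2.873 SDs) and RBOHB, an NADPH oxidase, at -0.0003712 (-2.374 SDs). GLO1 was negative and GLO3 positive after quantile normalization, and GLO3 also after centring. GLO5 and GLO4, with the highest signal at 8.74 and 8.47, differed by 0.001657 (0.9488 SDs) and 0.0008282 (0.6994 SDs).

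Green tissue, found in the pericarp of the developing seed, was followed through 4 marker genes. All 4 had a higher mean with additional NH4Cl as deposited and after centring, and their median difference was 1.502 within-group SDs. Groups overlapped for CAB2R, PETE and RBCS. They did not overlap for LIR1 (7.97 SDs; limma adjusted p of 0.1212), where 17.4% of all rice probe sets had no overlap. After quantile normalization 1 of 4, RBCS, was higher at 0.001478, LIR1 was lower at -8.102e-05, and CAB2R and PETE had no difference left. Their summed level ran from 35.0541 to 35.0579 with additional NH4Cl and from 35.0522 to 35.0559 in control, and of the 4 only LIR1, at 6.03, lay within the range of the reporters. Of the 10 starchy endosperm markers, 5 had a higher and 5 a lower mean as deposited, with 0 higher after quantile normalization and 9 after centring. Groups did not overlap for 6 of them (4 higher, 2 lower). Over all rice probe sets that share was 17.4%, and it was 24.7% in the highest of 4 equal bins of level. The median difference of these 10 markers was 0.6686 within-group SDs. Their summed level ran from 118.75799 to 118.76618 with additional NH4Cl and from 118.78489 to 118.79501 in control. The gap between these sums came almost wholly from SSI, which differed by -0.02891. The next largest difference in size was -2.522e-05, for AGPS2. The 4 higher ones without overlap were PROLAMIN (2.373 SDs) and the glutelin genes GLUB-5 (4.282 SDs), GLUA-1 (3.033 SDs) and GLUA-3 (2.938 SDs). The 2 lower ones were the starch synthesis genes SSI at -0.02891 (-6.131 SDs; limma adjusted p of 0.1423) and AGPS2 at -2.522e-05 (-4.086 SDs; limma adjusted p of 0.209), AGPS2 being positive after centring. The 4 higher ones and AGPS2 had no difference left after quantile normalization. The 8 aleurone and embryo markers all overlapped between groups, beside the same shares, and their median difference was 0.003545 within-group SDs. The part of these tissues in the differences of GER1, GER2 and GER6 was not tested.

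**Figure D4:**
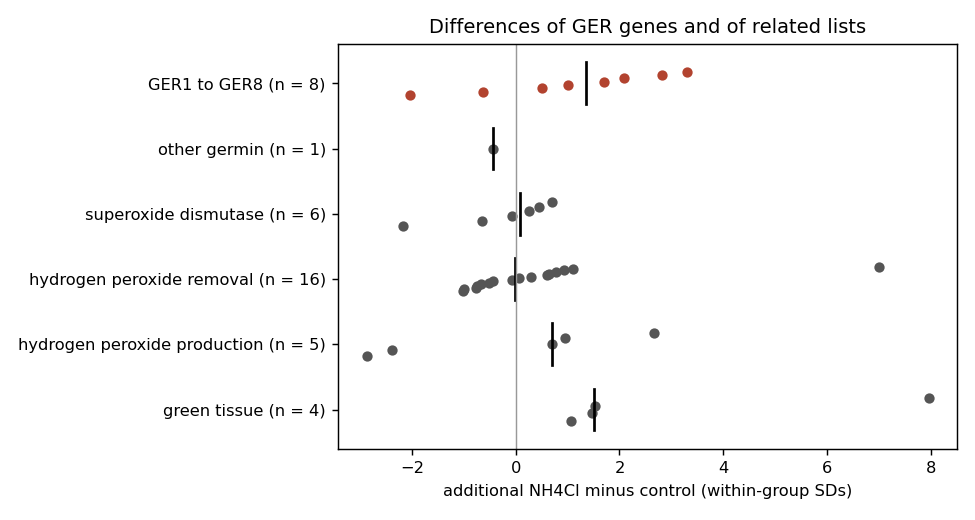
Difference of each gene, additional NH4Cl minus control, in within-group SDs as deposited, for the GER genes (red), related lists and green tissue markers (grey); black bars are list medians, whose signs hold for the values as deposited. The GER median is 1.359 SDs, that of superoxide dismutases 0.09139, that of hydrogen peroxide removal -0.01048, that of hydrogen peroxide production 0.6994 and that of green tissue 1.502. The starchy endosperm markers (median 0.6686) and the aleurone and embryo markers (median 0.003545) are not drawn.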

How the data were processed

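RNA of 6 seed samples was measured on Affymetrix rice genome arrays. The deposited table gives 1 log2-scale value per probe set and array; the authors' log base, background correction, summarization and scaling are not stated in the labels used, and none was redone. After 187 control probe sets were left out, 57194 rice probe sets entered one linear model on group alone, using limma 3.58.1 (R 4.3.3) with plain eBayes moderation; p-values are two-sided, and a probe set passed at a Benjamini-Hochberg adjusted p under 0.05. Standard errors beside differences are unmoderated. The fit was also run on simulated data with shifts that were, in within-group SDs, many times larger than the differences of the GER genes. That run cannot tell whether differences of their size would be found.

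Gene names came from the platform annotation and the gene table of assembly ASM3414082v1, where 22436 had 1 gene. The members and lists were chosen with earlier results of these data known. Related genes were matched by patterns on names, 28 in all, each through its brightest probe set; the text names all 8 GER genes, the 2 brightest genes of each such list and any past the threshold, and genes at an unadjusted p under 0.05 were named after their values were seen. For likeness, the 2 most correlated probe sets with an informative gene name were taken.

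Alternatives were quantile normalization, median centring, a replicate block, trended and robust moderation, a filter on dim probe sets, removal of cross-hybridizing probe sets, the mean of a gene's probe sets, and each array left out. The number of arrays limits the precision.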

Additional observations from a re-analysis of the deposited data

How the results depend on the processing

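Over all rice probe sets the 4 limma calls became 4079 after quantile normalization (2082 higher, 1997 lower), 51354 after median centring (50499 higher, 855 lower), 32 with probe sets below the median level left out, 2 with trend and robust moderation, and between 0 and 1 with 1 array left out. Over all rice probe sets, same-numbered samples did not deviate together (correlations of deviations of -0.06163, 0.0449 and -0.07747, against -0.05019 to 0.1026 for differently numbered ones). These values cannot show whether the replicate numbers mark shared plants, which the labels do not name. With the replicate number as a block there were 2 calls, and the block changed no call of a GER gene. The count of 6 GER genes with a higher mean was 2 after quantile normalization and 6 with any 1 array left out, GER4 standing in for GER8 without additional NH4Cl replicate 3. The count of 5 without overlap was 1 after quantile normalization, 7 after median centring, with GER7 then higher, and between 5 and 6 with 1 array left out. The share of all rice probe sets without overlap was taken only for the deposited values (17.4%), so these other counts have no background beside them. The 28 related genes had 5 calls after quantile normalization (1 higher, 4 lower) and 18 after centring (18 higher), against 0 as deposited. Signs that turned were those of GER4 (6.886e-05 without additional NH4Cl replicate 3; lowest -0.002505 with 1 array left out), GER5 (-4.949e-05) and GER6 (-0.0001671) after quantile normalization, and GER7 (0.0001076) after centring. GER8's leading probe set turned without additional NH4Cl replicate 3 (-4.107e-07; highest 4.196e-06 with 1 array left out). Its second probe set turned after quantile normalization (6.965e-06), after centring (0.0001216) and without control replicate 1 (2.82e-07; lowest -2.254e-06). Its dimmest turned after centring (0.0001224), without additional NH4Cl replicate 3 (1.688e-07) and without control replicate 3 (3.488e-07; lowest -6.392e-07). Signs that turn with centring do so by construction, since it adds the same amount to the difference of every probe set. The cause of the other turned signs was not tested. GER5, GER6, GER7 and GER8 lie within the range of the reporters, which limits what their probe sets can show.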
